A study of Zea mays with 4 samples.

Results

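The PIP1 group of plasma membrane aquaporins was read from 8 probe sets for 4 maize genes, out of 17734 probe sets on the array and 1108 genes that its annotation names. Members were the probe sets whose single annotated gene carries PIP1 and a member number in its symbol or an older name. The rule used names alone, but it was set with earlier results of these data known. The genes were PIP1-1 (LOC542434), pip1-2 (LOC541779, also pip1b), PIP1-5 (LOC542014, also pip1e) and a record that carries both names PIP1-3 and PIP1-4 (LOC541886), called PIP1-3/PIP1-4 below. PIP1-3/PIP1-4 had 5 probe sets, built on transcript clusters numbered 1, 2 and 3, and each other gene had 1.

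RNA of 4 maize samples was hybridised to the Affymetrix Maize Genome array, which reads each transcript cluster with a probe set, a handful of short DNA oligonucleotides whose signals are combined into 1 value. The inbred line F98902, which the labels describe as of bad digestibility, and the inbred line Cm484, described as of good digestibility, had 2 samples each, numbered 1 and 2. All 4 samples were untreated and came from a greenhouse, with days of 14 h at 22 °C and nights at 20 °C. They were taken at the flowering stage, 24 h ahead of ovulation. Each kind of digestibility is represented by 1 line, so digestibility and the remaining differences of these lines cannot be told apart. Nothing in the labels says that samples of a line came from separate plants, so the p-values reflect sample-to-sample spread that may be technical.

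Aquaporins are membrane channels for water and small neutral solutes, and the plasma membrane kind of plants falls into the PIP1 and PIP2 groups. The channels assemble as tetramers. In frog oocytes, some maize PIP1 proteins made alone give little water permeability, whereas a PIP2 partner carries them to the plasma membrane in mixed tetramers. In maize, PIP genes are active in roots, in the vascular tissue and in elongating organs, where they take part in the movement of water across cells.

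The labels name stem in the growth protocol and root in the extraction protocol, so the tissue was described from marker genes. All 6 vascular and secondary wall markers (such as the cellulose synthase genes cesa10, cesa11 and CesA12) reached the detection value of 5 (log2) on all 4 arrays. Of 20 green tissue probe sets, 16 or 17 reached it on each array, and 1 of 10 seed and pollen probe sets did. The list of root markers held 1 probe set, of the root-preferential gene zrp4 (LOC542706), which read 2.34 and 2.07 in F98902, below detection, and 8.83 and 8.59 in Cm484. "Called" means here an adjusted p under 0.05 in a limma fit over 10131 probe sets. Of the 16 green tissue probe sets tested, 10 were called higher in F98902 (background, the share of all probe sets tested, 17.7%), 1 was called higher in Cm484 (background 17.1%), of the light-harvesting gene lhcb5 (LOC542716, -0.94, adjusted p = 0.0167), and 5 were not called. The probe sets tested belong to 11 genes and those called to 7, since C4ppdkZm1 (LOC542759) and CP24 (LOC542321) have several each. A further probe set of C4ppdkZm1 did not differ (0.01, adjusted p = 0.978). Summed over the list, green tissue markers stood at 15.91 and 15.86 (log2 of the sum) in F98902 and 14.94 and 15.17 in Cm484, a sum led by the strongest probe sets. Vascular and secondary wall markers stood at 13.58 and 13.58 in F98902 and 14.08 and 13.78 in Cm484, and seed and pollen markers between 6.74 and 7.18 on all 4 arrays. The part of tissue makeup in the PIP1 differences was not tested. In RNA from whole tissue, fewer cells of a type and less RNA per cell cannot be told apart.

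Of the 8 PIP1 probe sets, 7 reached the detection value on all 4 arrays and were tested, covering all 4 genes, and none of them passed the filter through 1 line alone. The eighth, the cluster 2 probe set of PIP1-3/PIP1-4, read 2.11 and 2.13 in F98902 and 2.14 and 2.11 in Cm484, below detection on every array. PIP1-5, PIP1-1 and pip1-2 were higher in Cm484, and the 4 detected probe sets of PIP1-3/PIP1-4 lay above in F98902, 3 of them called. In all, 6 of the 7 PIP1 probe sets were called, against a background of 34.9% of all probe sets tested. By direction, 3 were called higher in Cm484 (background 17.1%) and 3 higher in F98902 (background 17.7%). The 3 probe sets higher in F98902 belong to 1 gene and may share sequence, so they are not 3 independent genes. With 1 value per gene, an alternative chosen after seeing the data, all 4 genes were called (background 35.0%), 3 higher in Cm484 (background 17.2%) and 1 higher in F98902 (background 17.8%). With 1 array left out, 3 of the 7 probe sets were called without F98902 replicate 1 (background 26.7%) and 2 without F98902 replicate 2 (background 23.1%), Cm484 replicate 1 (background 21.8%) or Cm484 replicate 2 (background 25.2%), all of them higher in Cm484.

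**Figure D1:**
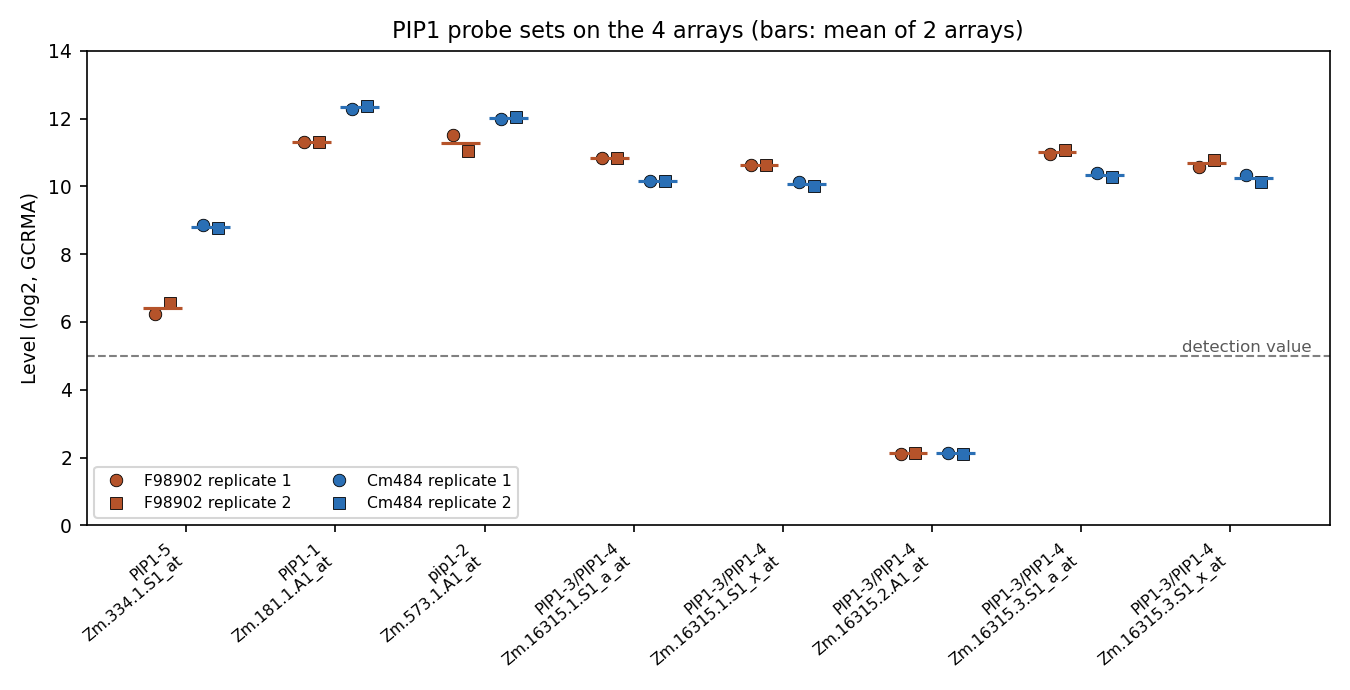
Level (log2, GCRMA) of each PIP1 probe set on the 4 arrays, with F98902 in brown and Cm484 in blue, circles for replicate 1 and squares for replicate 2, short bars for the mean of the 2 arrays of a line, and a dashed line at the detection value of 5. The arrays of the 2 lines lie apart for 7 probe sets, with Cm484 above for PIP1-5, PIP1-1 and pip1-2 and F98902 above for 4 probe sets of PIP1-3/PIP1-4, while the cluster 2 probe set of PIP1-3/PIP1-4 lies near 2.1 on every array.

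PIP1-5 differed most between the lines. In maize it is known as one of the PIP genes most active in roots. Its probe set read 6.24 and 6.57 on F98902 replicates 1 and 2, and 8.87 and 8.76 on Cm484 replicates 1 and 2. Both Cm484 arrays were high and the lines did not overlap, with a gap of 2.19 between the nearest arrays. The means were 6.41 ± 0.24 (SD, n = 2) in F98902 and 8.81 ± 0.08 (SD, n = 2) in Cm484, a 5.31-fold higher signal in Cm484 (-2.41 ± 0.19 on the log2 scale, SE, 95% interval -2.88 to -1.94, adjusted p = 0.000679). The replicates of F98902 differed by 0.34 and those of Cm484 by 0.11, so the difference was larger than the spread within either line. Of all probe sets tested, 92.1% had a smaller absolute difference. PIP1-5 stayed called under each of 13 alternatives, including those that left out 1 array, with differences from -2.58 to -2.24.

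PIP1-1 was also higher in Cm484. This gene encodes one of the maize PIP1 proteins that show little water transport when made alone in frog oocytes. Its probe set read 11.31 and 11.30 in F98902 and 12.29 and 12.38 in Cm484. Both Cm484 arrays lay above both F98902 arrays by at least 0.98. The means of 11.31 ± 0.01 (SD, n = 2) and 12.33 ± 0.06 (SD, n = 2) gave a 2.04-fold higher signal in Cm484 (-1.03 ± 0.15, SE, 95% interval -1.41 to -0.64, adjusted p = 0.00601). The call held under each of 13 alternatives, with adjusted p from 0.00228 to 0.0343.

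The third gene higher in Cm484 was pip1-2, whose protein is the maize PIP1 most studied for its mixed tetramers with PIP2 partners. Its probe set read 11.51 and 11.04 in F98902 and 11.997 and 12.041 in Cm484. The lines did not overlap, but F98902 replicate 2 lay 0.47 below F98902 replicate 1, the widest gap between replicates among the PIP1 probe sets. The means were 11.28 ± 0.33 (SD, n = 2) and 12.02 ± 0.03 (SD, n = 2), a 1.67-fold higher signal in Cm484 (-0.74 ± 0.21, SE, 95% interval -1.27 to -0.21, adjusted p = 0.0454). Among the filters tried, the call was lost with none on low values (adjusted p = 0.0975). Among the fits with 1 array left out, it was lost without F98902 replicate 2 (-0.50, adjusted p = 0.145), Cm484 replicate 1 (-0.76, adjusted p = 0.14) or Cm484 replicate 2 (-0.72, adjusted p = 0.145). Controls for the 5′ ends of housekeeping genes were likewise lower on F98902 replicate 2 than on F98902 replicate 1. Set against the average of the remaining arrays, the median of 5 such probe sets lay at -0.83 (log2) on F98902 replicate 2 and at 0.86 on F98902 replicate 1, while that of 5 controls for the 3′ ends lay at 0.00 and 0.12. On Cm484 replicates 1 and 2 the 5′ median lay at 0.26 and -0.22, where pip1-2 was not lower on replicate 2. The labels give 120.7 ng of RNA for F98902 replicate 2 and between 312.4 and 416.8 ng for the other samples. The part of the 5′ signal and of the RNA amount in pip1-2 was not tested.

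PIP1-3/PIP1-4 went the other way. Its detected probe sets come as 2 pairs, of cluster 1 and of cluster 3, each with 1 whose name ends in _a_at, which by the maker's naming matches transcripts of 1 gene, and 1 that ends in _x_at, some probes of which also match other transcripts. The cluster 1 probe set ending in _a_at read 10.83 and 10.84 in F98902 and 10.17 and 10.16 in Cm484, with both F98902 arrays above both Cm484 arrays by at least 0.66. That is a 1.59-fold higher signal in F98902 (0.67 ± 0.15, SE, 95% interval 0.29 to 1.05, adjusted p = 0.0224), from means of 10.84 and 10.16 whose SDs were both under 0.01 (n = 2). Its replicates lay within 0.01 of each other in each line.

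That of cluster 3 ending in _a_at read 10.96 and 11.06 in F98902 and 10.40 and 10.26 in Cm484, a 1.60-fold difference (0.68 ± 0.16, SE, adjusted p = 0.0266) with F98902 above. The cluster 1 probe set ending in _x_at read 10.64 on both F98902 arrays, and 10.12 and 10.01 in Cm484, a 1.49-fold difference (0.57 ± 0.15, SE, adjusted p = 0.0386). The last, of cluster 3 and ending in _x_at, read 10.58 and 10.77 in F98902 and 10.35 and 10.12 in Cm484, and its 1.36-fold higher signal in F98902 was not called (0.44 ± 0.18, SE, adjusted p = 0.111). Within both pairs the difference was smaller for the probe set ending in _x_at. The 4 probe sets had F98902 above Cm484 on all arrays, without overlap, by 0.23 to 0.66 between the nearest arrays.

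Averaged per array, the 4 probe sets of PIP1-3/PIP1-4 read 10.75 and 10.83 in F98902 and 10.26 and 10.14 in Cm484, with F98902 above on both arrays. As 1 value for the gene this gave 0.59 ± 0.16 (SE, 95% interval 0.20 to 0.98, adjusted p = 0.0368). None of the 3 calls of PIP1-3/PIP1-4 held when any 1 of the 4 arrays was left out, although their differences stayed between 0.52 and 0.74. The smallest adjusted p of these fits was 0.0666. All 7 probe sets kept the sign of their difference under each alternative in which they were tested.

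**Figure D2:**
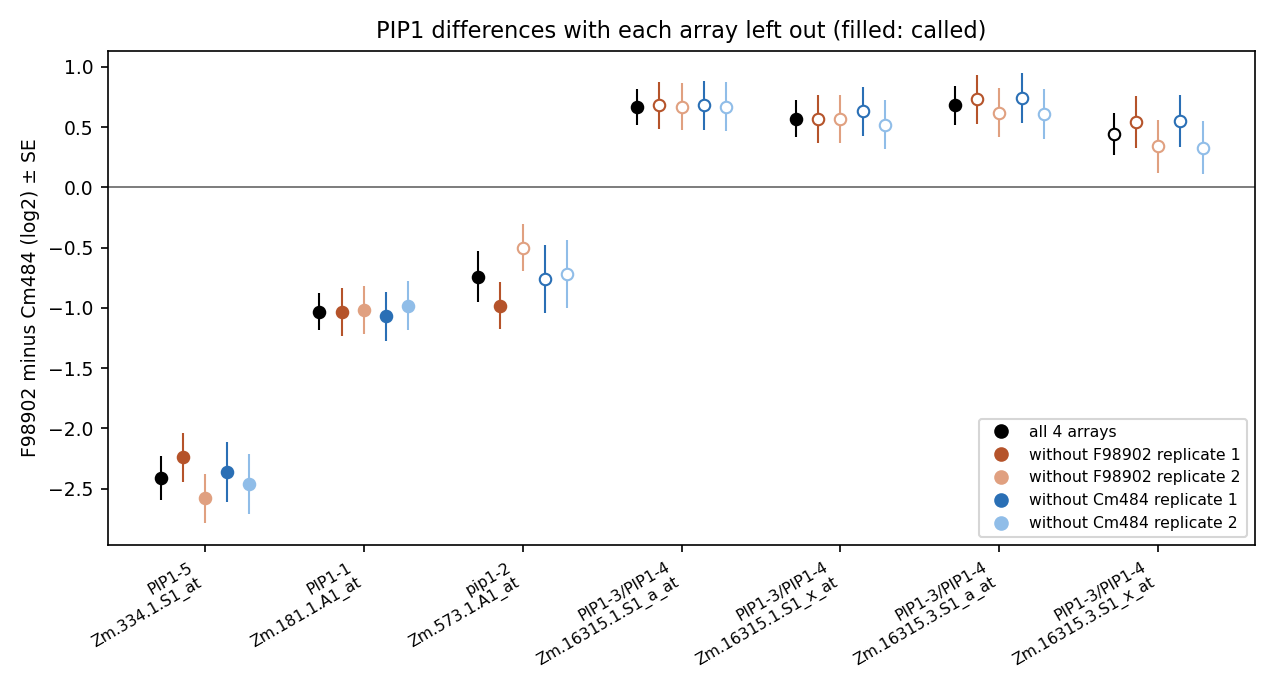
Log2 difference (F98902 minus Cm484) ± SE of each detected PIP1 probe set with all 4 arrays (black) and with 1 array left out (colours), filled where called. PIP1-5 and PIP1-1 are filled throughout, pip1-2 is filled with all arrays and without F98902 replicate 1, and the probe sets of PIP1-3/PIP1-4 are filled at most with all 4 arrays.

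All 7 PIP1 probe sets tested had lines that did not overlap, as had 72.0% of all probe sets tested, so with 2 arrays a line the absence of overlap is common. The median of the 7 differences was 0.44, against -0.02 over all probe sets tested, but 4 of the 7 are the probe sets of PIP1-3/PIP1-4. The median absolute difference was 0.68, against 0.44 over all. The difference of PIP1-1 exceeded 76.6% of all absolute differences, that of pip1-2 66.6%, and those of PIP1-3/PIP1-4 between 49.7% and 63.7%.

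**Figure D3:**
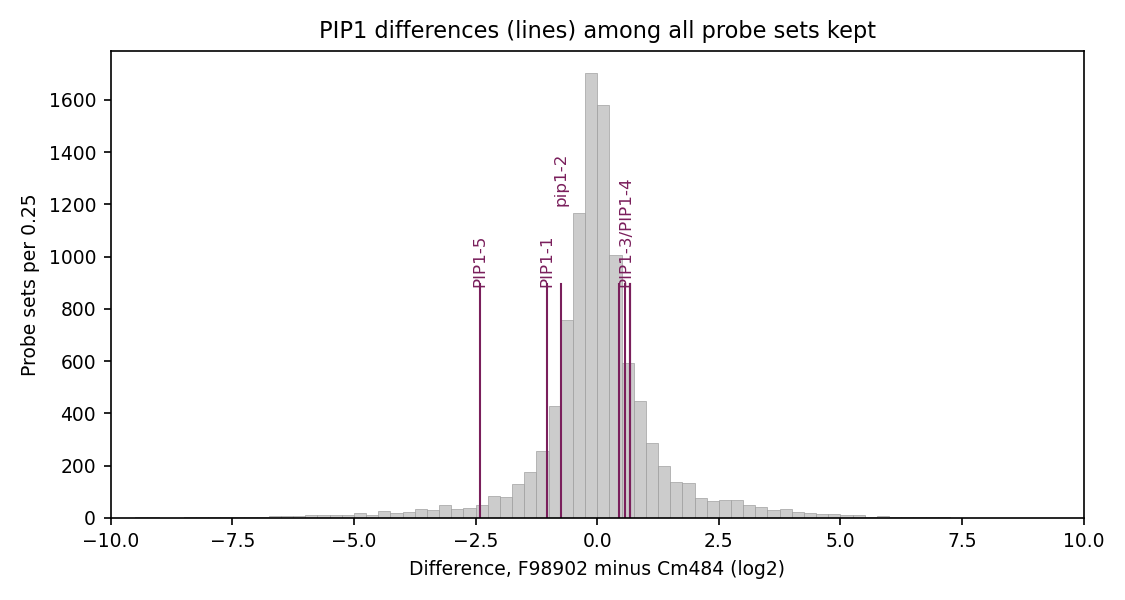
Grey bars count all 10131 probe sets tested by their log2 difference (F98902 minus Cm484), in steps of 0.25, and coloured lines mark the 7 PIP1 probe sets. PIP1-5, at -2.41, lies in the left tail, whereas the lines of PIP1-3/PIP1-4, from 0.44 to 0.68, lie close to the middle.

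The ratio of a pair of PIP1 genes on the same array is not changed by a constant shift of that array's log2 values. Quantile normalization is no such shift, and under it the difference of the cluster 1 probe set of PIP1-3/PIP1-4 ending in _a_at went from 0.67 to 0.72 and that of PIP1-5 from -2.41 to -2.43. The log2 ratio of PIP1-3/PIP1-4 to PIP1-5 read 4.51 and 4.26 in F98902 and 1.39 and 1.38 in Cm484, a change of 3.0 between the lines against at most 0.26 between replicates. The ratio of PIP1-1 to PIP1-3/PIP1-4 read 0.56 and 0.47 in F98902 and 2.03 and 2.24 in Cm484, a change of -1.62. The ratios set signals of different probes against each other, so only their change between the lines was read. The ratio of PIP1-1 to pip1-2 changed by -0.29 between the lines, less than the 0.46 between replicates. Over the 6 pairs of genes the change ran from 0.29 to 3.0, and each pair had an exact two-sided permutation p of 0.333, the smallest that 2 arrays against 2 can give.

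The other aquaporins on the array were 28 probe sets for 24 genes, of which 17 for 16 genes were tested. Of these, 11 were called higher in Cm484 (background 17.1%), 1 was called higher in F98902 (background 17.7%) and 5 were not called, with a median difference of -1.82 against -0.02 over all probe sets tested. The filter let 2 of them, of ZmPIP2-2 and ZmPIP2-3, in through Cm484 alone, so these could only be higher there. In all, the 12 called probe sets belong to 11 genes. In the PIP2 group, whose proteins are the partners of PIP1 in mixed tetramers, 4 of 5 tested probe sets were called, all higher in Cm484 (background 17.1%), among them the 2 whose direction the filter fixed. Of the other 2, that of PIP2-1 (LOC541888) was detected on all 4 arrays, with 9.85 on both F98902 arrays and 11.71 and 11.69 in Cm484, 3.61-fold higher in Cm484 (adjusted p = 0.000798). PIP2-4 (LOC541890), also detected on all 4, read 7.01 and 7.46 in F98902 and 10.63 and 9.67 in Cm484, 7.56-fold higher there (adjusted p = 0.00337). ZmPIP2-3 (LOC541889), one of those let in through Cm484 alone, read 4.38 and 4.41 in F98902, below detection, and 8.59 and 8.82 in Cm484, at least 13-fold higher there (adjusted p = 9.55e-05). The name of this probe set ends in _s_at, a kind treated here as shared sequence, so its signal may include other transcripts. Another probe set of ZmPIP2-3 read 2.39 and 2.55 in F98902 and 2.57 and 2.64 in Cm484, below detection on all 4 arrays. A further probe set of PIP2-1 was also below detection, at 1.70 and 1.72 in F98902 and 1.73 and 1.70 in Cm484.

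Among the tonoplast aquaporins (TIP), which sit in the vacuole membrane, 2 of 4 tested probe sets were called higher in Cm484 (background 17.1%) and 1 higher in F98902 (background 17.7%). TIP4-4 (LOC542647) read 4.92 and 5.08 in F98902, where 1 of 2 arrays reached detection, and 6.87 and 6.77 in Cm484 (-1.82 on the log2 scale, adjusted p = 0.00106). TIP4-1 (LOC541897) read 10.92 on both F98902 arrays and 8.51 and 8.34 in Cm484, 5.65-fold higher in F98902 (adjusted p = 0.000368). TIP4-1 and PIP1-3/PIP1-4 were the aquaporin genes called higher in F98902.

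Of the NIP group, some members of which carry silicic or boric acid, 4 of 5 tested probe sets were called, all higher in Cm484 (background 17.1%). The 4 calls come from 3 genes, since NIP2-1 (LOC542643) has several probe sets. NIP3-1 (LOC541885) read 7.31 and 7.29 in F98902 and 10.05 and 10.14 in Cm484, a 6.92-fold difference (adjusted p = 0.000227). Of the SIP group, small aquaporins of internal membranes, 1 of 3 was called (background 34.9%). This was SIP1-2 (LOC541892), with 5.06 and 4.89 in F98902, where 1 of 2 arrays reached detection, and 6.58 and 6.98 in Cm484 (-1.81 on the log2 scale, adjusted p = 0.0023).

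**Figure D4:**
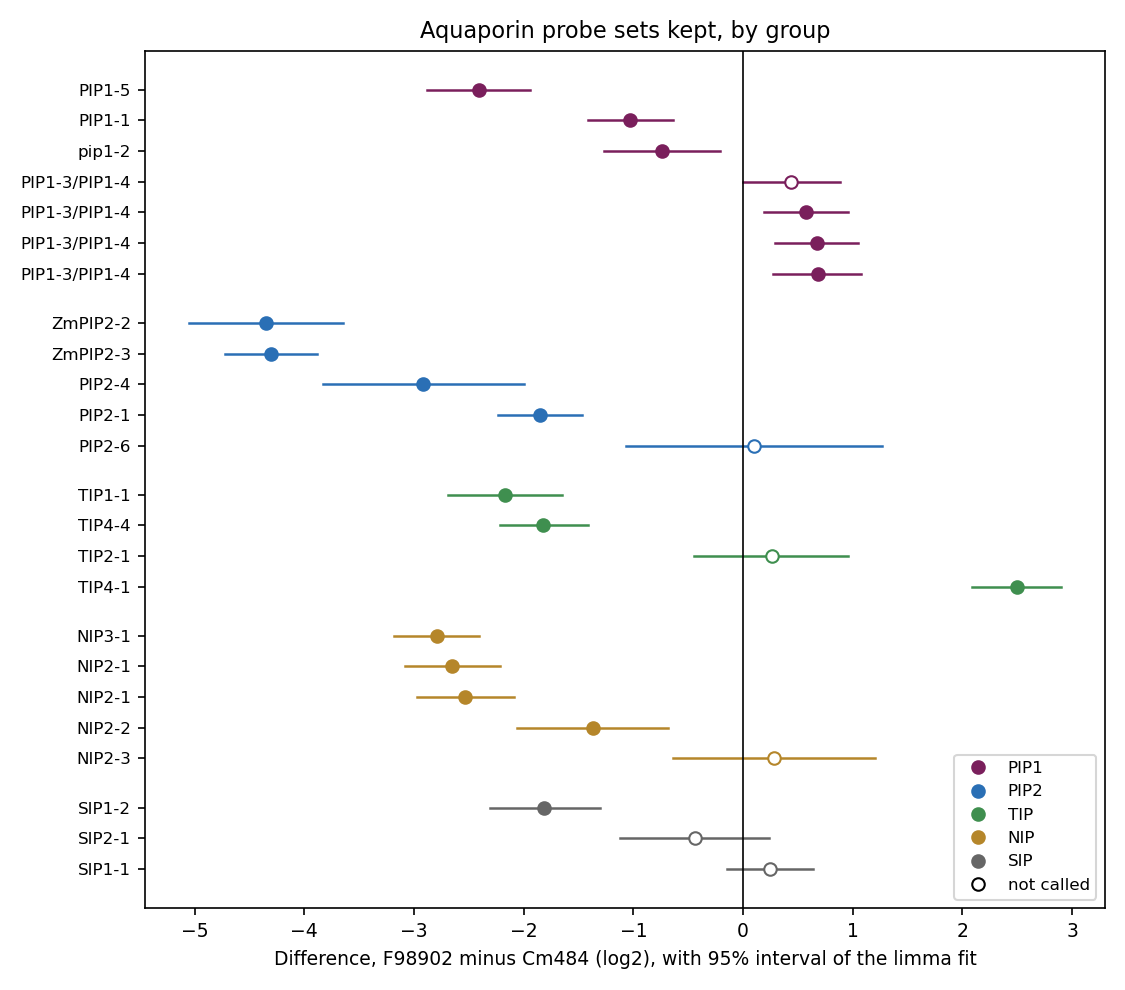
Log2 difference (F98902 minus Cm484) of each aquaporin probe set tested, coloured by group, with the 95% interval of the limma fit and open points where not called. PIP1 has called probe sets on both sides of 0, PIP2, NIP and SIP on the Cm484 side alone, and TIP on both sides.

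Of 15 probe sets for proton pumps, potassium channels, a sucrose transporter and sodium exchangers, 10 were below detection on every array, 5 were tested and 1 was called (background 34.9%), the potassium channel gene ZMK2 (LOC542002), higher in F98902 by 0.56 ± 0.16 (SE, adjusted p = 0.044). The plasma membrane proton pump gene mha4 (LOC542052) read 12.33 and 12.56 in F98902 and 12.11 and 12.36 in Cm484, with overlapping lines (0.21 ± 0.18, SE, adjusted p = 0.41). Of 9 dehydration probe sets, 7 were tested and 6 called (background 34.9%), from 3 genes. By direction, 5 were called higher in F98902 (background 17.7%) and 1 higher in Cm484 (background 17.1%). Higher in F98902 were 3 of the dehydrin gene dhn2 (LOC542251, by 2.18-fold, 2.82-fold and 4.01-fold) and 2 of asr1 (LOC542304, by 2.83 and 4.35 on the log2 scale), while vp14 (LOC732819), an abscisic acid synthesis gene, had the higher signal in Cm484 (-1.34, adjusted p = 0.0246) and was below detection on F98902 replicate 1.

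The genes with the pattern most like each PIP1 gene were taken by the smallest distance over the 4 arrays, after centring each probe set on its own mean, among 771 tested probe sets with an informative name. With 4 arrays this likeness is mainly the size of the line difference and the gaps between replicates. Nearest to PIP1-5 were sdg110 (LOC542662, distance 0.22), aldh2 (LOC542567, 0.234) and the tonoplast aquaporin TIP1-1 (LOC541675, 0.258). The filter let sdg110 in through Cm484 alone, since it read 4.49 and 4.53 in F98902, below detection. TIP1-1 read 7.47 and 7.87 in F98902 and 9.95 and 9.73 in Cm484, again with both Cm484 arrays high. Nearest to PIP1-1 were gcn5 (LOC542030, 0.0995), CCD (LOC732715, 0.148) and der2 (LOC606471, 0.157). Nearest to PIP1-3/PIP1-4 were pDCT2 (LOC541644, 0.0512), dad1 (LOC541686, 0.0624) and Hda1 (LOC541883, 0.102). Nearest to pip1-2 were copz1 (LOC542595, 0.0599), knox7 (LOC732756, 0.0636) and spp1 (LOC541868, 0.087). As with pip1-2, all 3 of these read lower on F98902 replicate 2 than on replicate 1, with 9.11 against 9.64 for copz1, 7.98 against 8.53 for knox7 and 8.95 against 9.30 for spp1. They were picked for likeness over these same arrays, so the shared drop follows from that choice. Of them, copz1 (adjusted p = 0.0606) and knox7 (adjusted p = 0.0543) were not called between the lines, and spp1 was.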

How the data were processed

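Per the submitters' processing notes, the authors made the deposited log2 values with GCRMA (background correction by probe sequence, quantile normalization, 1 value per probe set) in R 2.6.2; further steps: not given in the sources used here. Values were used as deposited. Genes came from the platform annotation (1452 probe sets with 1 gene, 1 with several, 16281 with none), updated by gene identifier to the table of Zm-B73-REFERENCE-NAM-5.0, where 1060 of 1108 genes were found. No genome or sequence was used, so no positions are given, and whether the lines differ in sequence at the probes was not tested. After removal of 113 controls, a probe set was kept if 2 or more of the 4 arrays reached 5 (log2), which left 10131. These were tested by limma 3.58.1 under R 4.3.3 (lmFit, eBayes, F98902 minus Cm484, no covariates, two-sided, Benjamini-Hochberg). A probe set below 5 on both arrays of a line has a fold given as at least the other mean over that value. Every adjusted p is from this fit or a named alternative. Between 54.8% and 55.2% of probe sets reached 5 on each array; the number of arrays limits the precision. The steps were tested on simulated data. Every PIP1 probe set is named. Of each other aquaporin group the called probe set with the smallest p in each direction is named, and of the transport and dehydration lists those called; other names, such as mha4, were chosen after their values were seen. Members and lists were chosen with earlier results of these data known. Alternatives were other filters (none, 4 or 6), normalizations, variance models, a replicate block, leaving out probe sets of shared sequence, and leaving out each array.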

Additional observations from a re-analysis of the deposited data

How the results depend on the processing

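Over 89 combinations of a PIP1 probe set and an alternative, 0 changed direction, 21 lost a call and 0 gained one. With 2 arrays a line, differences of about 1.5-fold lie near the threshold. The same probe sets lost their calls in fits with 1 array left out and in fits with all 4 arrays. The cause of the lost calls was not tested. The number of PIP1 probe sets called was 6 of 7, and ran from 2 to 3 with 1 array left out, of which 0 were higher in F98902 and from 2 to 3 higher in Cm484 (3 without F98902 replicate 1). All probe sets called numbered 3533, and from 2205 (without Cm484 replicate 1) to 2706 with 1 array left out, 2339 without F98902 replicate 2. In these fits the lone sample of a line is assumed to vary like those of the other line. Other aquaporins called ran from 11 to 12. With 1 array left out, differences ran from 0.67 to 0.68 for PIP1-3/PIP1-4 cluster 1 _a_at, 0.52 to 0.63 for cluster 1 _x_at, 0.61 to 0.74 for cluster 3 _a_at and -0.98 to -0.50 for pip1-2. With no filter pip1-2 (-0.74, adjusted p = 0.0975) was not called, and with arrays shifted to 1 median cluster 1 _x_at (0.52, adjusted p = 0.0581) was not. The labels do not say that a replicate number marks a shared plant or batch, and the replicate 1 minus 2 differences of the lines correlated at -0.02 over probe sets. With a replicate block, 2 PIP1 probe sets were called, 0 of them higher in F98902, and PIP1-3/PIP1-4 cluster 1 _a_at (0.67), cluster 1 _x_at (0.57), cluster 3 _a_at (0.68) and pip1-2 (-0.74) lost their calls at adjusted p from 0.0529 to 0.0779; all probe sets called were 2983. With 1 value per gene, 1 was higher in F98902, since PIP1-3/PIP1-4 then counts once.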
